A study of Homo sapiens with 7 samples.

Results

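The SR proteins are splicing factors built from RNA recognition motifs and a tail rich in arginine-serine dipeptides. The genes described here are SRSF1, SRSF2, SRSF3, SRSF4, SRSF5, SRSF6, SRSF7, SRSF9, SRSF10 and SRSF11, chosen by name, and their isoforms were found through the Ensembl gene ID of each symbol. They gave 782 of the 386982 isoforms listed and 10 of the 14294 genes. Of the 782 isoforms, 747 carried a hashed ID, 32 a transcript ID of GENCODE 29 and 3 a reference ID that GENCODE 29 does not hold.

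The libraries come from the established human embryonic stem cell line HUES66, in which Cas13d, an RNA-guided nuclease that cleaves RNA, was used to knock down single isoforms of RBFOX2, a gene for another splicing factor. One library is a control with the genotype WT, and 6, called the G libraries here, carry a G number and an RBFOX2 isoform id: 178147 for G3, 178149 for G5, 178136 for G11, 178135 for G12, 178145 for G13 and 178146 for G14. All 7 cultures, the control included, received 1 µg/ml doxycycline, were taken at 24 h and have piggyBac in their description. The labels say neither what the control expressed, nor which isoform an id denotes, nor whether a culture was a clone.

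SR proteins bind short sequences in exons and recruit the spliceosome to nearby splice sites, and several also accompany mature mRNA out of the nucleus. Kinases of the SRPK and CLK families phosphorylate the arginine-serine tail. Many SR genes carry a stretch, a cassette exon or an intron, that places an early stop codon in the mRNA when it is kept, and such mRNA is a substrate of nonsense-mediated decay (NMD), a route by which SR proteins limit their own production.

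Full-length cDNA reads were counted, and a level in TPM is the reads of a gene or isoform set against all reads of its library and not against transcript length, since 1 read stands for 1 cDNA molecule. Library totals lay between 16801842 reads (the control) and 26678538 (G12). No group has a second library, so no p-value is given, no difference has a replicate check, and the 95% intervals cover counting error only; all 6 G libraries are set against the same control. RBFOX2 stood at 107 TPM in the control, 42.1 with G3, 96.8 with G5, 82.9 with G11, 88.5 with G12, 55.9 with G13 and 106 with G14. Of 11 pluripotency markers 10 had a row, all at 1 TPM or more in every library, and summed to between 1696 and 2147 TPM; SOX2 had no row. The sum hides opposite differences: POU5F1 was at 41.2% to 64.3% of the control in the 6 G libraries (915 TPM in the control, 377 in G14) and NANOG at 34.9% to 55.4%, while DPPA4, L1TD1, SALL4 and TDGF1 were above the control in all 6. DNMT3B ranged from 30.3% of the control (G13) to 154% (G3). Of 8 markers of other cell types 3 had a row, summing to at most 0.240 TPM in any library.

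The stop-bearing stretches of the SR genes with the most NMD reads are shown first, because isoforms that carry them are described below. Each runs from the start of the retained intron or cassette exon, 5′ to 3′ on the gene's strand, to the stop codon that GENCODE 29 (GRCh38) annotates there, which is in capitals.
SRSF7-208: gtatttatttTAA
SRSF7-204: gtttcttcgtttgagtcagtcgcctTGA
SRSF1-204: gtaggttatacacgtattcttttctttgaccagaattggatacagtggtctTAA
SRSF3-203: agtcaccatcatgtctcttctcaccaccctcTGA
The SRSF7-208 stretch, chr2:38749516-38749528 on the minus strand, opens a retained intron of 875 bases and is complete with its stop codon after 13 bases. SRSF7-204 carries a cassette exon of 449 bases that lies within the same intron, with its stretch at chr2:38749319-38749346. The SRSF1-204 stretch lies in a retained intron of 200 bases, chr17:58005747-58005800 on the minus strand. The SRSF3-203 stretch lies in a cassette exon of 456 bases, chr6:36599821-36599854 on the plus strand.

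SRSF7 was furthest from the control among the 9 SR genes with a mean of at least 5 TPM. It encodes a protein with a zinc knuckle beside its RNA recognition motif that also takes part in mRNA export, and its gene covers bases 38743599 to 38751494 of chromosome 2, minus strand (ENSG00000115875.19). SRSF7 stood at 1065 TPM (17900 reads) in the control, 917 with G3, 611 with G5, 475 with G11, 509 with G12, 456 with G13 and 320 TPM (6702 reads) with G14. The control was highest of the 7 libraries, G3 was nearest to it and G14 was lowest. Less RNA per cell and fewer cells with the RNA cannot be told apart in such bulk libraries. The pluripotency genes POU5F1 and NANOG were also below the control in all 6 G libraries, and the part of cell state in the SRSF7 level was not tested. As a share of the control the total was 86.0% with G3 (95% interval 84.2 to 87.9), 57.3% with G5 (56.1 to 58.6), 44.6% with G11 (43.5 to 45.7), 47.8% with G12 (46.7 to 48.9), 42.8% with G13 (41.8 to 43.9) and 30.0% with G14 (29.2 to 30.9). The order of the libraries was not that of RBFOX2: G3, with the lowest RBFOX2 level, had the highest SRSF7 level of the G libraries, and G14, with RBFOX2 at 106 TPM against 107 in the control, had the lowest.

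The coding isoforms carried this difference. SRSF7-201 (ENST00000313117.11), the main coding mRNA, stood at 741 TPM in the control, 604 with G3, 393 with G5, 303 with G11, 334 with G12, 293 with G13 and 183 with G14. In G14 it was at 24.7% of the control (23.8 to 25.6). SRSF7-209, the next coding mRNA, followed it closely, from 116 TPM in the control to 25.8 in G14.

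The NMD isoforms of SRSF7 did not follow the coding ones. SRSF7-208, which keeps the intron shown above, stood at 39.8 TPM in the control, 55.5 with G3, 56.1 with G5, 39.2 with G11, 27.6 with G12, 29.1 with G13 and 35.0 with G14. It was thus above the control in G3 (139%, 126 to 154) and G5 (141%, 128 to 155), and in G11 its interval included the control (98.5%, 88.8 to 109). It was below the control in G12 (69.4%, 62.4 to 77.2), G13 (73.2%, 65.6 to 81.6) and G14 (87.9%, 79.0 to 97.7). SRSF7-204, with the cassette exon, was less abundant, at 8.15 TPM in the control and ranged from 5.26 in G13 to 13.2 in G3 in the G libraries.

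**Figure D1:**
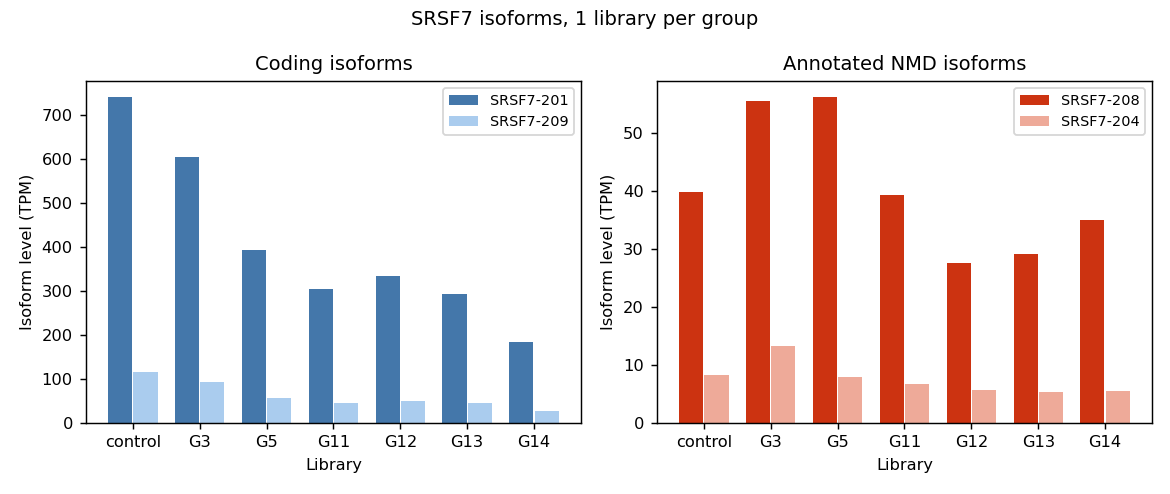
Levels in TPM of 2 coding isoforms of SRSF7 (left) and 2 of its annotated NMD isoforms (right) in the 7 libraries, 1 bar per library and isoform, with different vertical scales. SRSF7-201 is at 741 TPM in the control and 183 in G14, while SRSF7-208 stays between 27.6 and 56.1 TPM.

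The 4 annotated NMD isoforms of SRSF7 together made up 4.82% of its reads in the control (862 of 17900; 95% Wilson interval 4.51 to 5.14). Their share was 8.20% with G3 (7.79 to 8.63), 11.3% with G5 (10.8 to 11.8), 10.3% with G11 (9.67 to 10.9), 6.88% with G12 (6.47 to 7.32), 8.01% with G13 (7.51 to 8.55) and 13.5% with G14 (12.7 to 14.3). The intervals of all 6 G libraries lay above that of the control. Of 510 genes with enough NMD reads, 48.4% (G12) to 56.3% (G3) had a share above the control in a given G library. How many were above it in all 6 was not counted. The SRSF7 share was at least 2-fold that of the control in G5 (2.34-fold), where 1.76% of the 510 genes were that far up, in G11 (2.13-fold, 1.57% of genes) and in G14 (2.79-fold, 2.35% of genes). It was under 2-fold in G3, where 0.392% of genes passed, in G12 (0.392%) and in G13 (1.37%). In level, NMD isoforms summed to 51.3 TPM in the control and 75.2 with G3, 68.8 with G5, 48.7 with G11, 35.1 with G12, 36.5 with G13 and 43.1 with G14, against 1014 TPM for all other SRSF7 reads in the control and 841, 542, 426, 474, 419 and 277 in the G libraries in the same order. The larger share therefore came with a higher NMD level in G3 and G5, and in the other 4 G libraries with an NMD level below the control and a still lower level of the remaining isoforms.

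Hashed isoforms, which cannot be assigned to a coding or an NMD class from the table, held 9.80% of SRSF7 reads in the control and between 10.9% and 17.4% in the G libraries. The share of reads on annotated coding isoforms was 85.4% in the control and 69.1% in G14, which is 16.3 percentage points lower. In the other 5 G libraries it lay between 77.6% and 80.5%, less than 10 points from the control.

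The share of NMD isoforms of SRSF1, SRSF2 and SRSF3 was compared in the same way, and in none of these 3 genes was it above the control in all 6 G libraries. SRSF1, one of the first SR proteins described, had SRSF1-204 as its annotated NMD isoform. The SRSF1 share was 5.18% in the control (4.76 to 5.64), 4.69% with G3, 4.16% with G5, 3.71% with G11, 5.67% with G12, 6.19% with G13 and 6.53% with G14. Its intervals lay below that of the control in G5 (3.89 to 4.46) and G11 (3.41 to 4.03) and above it in G13 (5.76 to 6.66) and G14 (6.11 to 6.98). SRSF3-203 held 1.5% of SRSF3 reads in the control (1.32 to 1.71) and between 1.27% and 1.5% in the G libraries. The 2 NMD isoforms of SRSF2 held 1.27% of its reads in the control and between 0.732% and 1.27% in the G libraries.

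**Figure D2:**
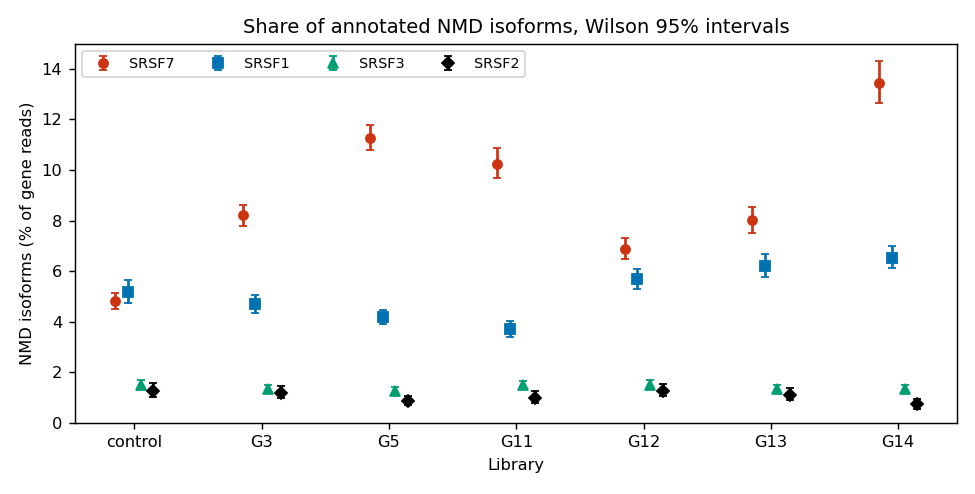
Share of annotated NMD isoforms in the reads of SRSF7, SRSF1, SRSF3 and SRSF2, in percent, for the control and the 6 G libraries; points are single libraries and bars are Wilson 95% intervals for counting error. SRSF7 runs from 4.82% in the control to 13.5% in G14, while SRSF1 stays between 3.71% and 6.53% and the other 2 genes stay at or under 1.5%.

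The annotated NMD isoform of SRSF5 held at most 0.371% of its reads and that of SRSF10 at most 0.161%. SRSF4, SRSF9 and SRSF11 had no listed isoform of that class. For SRSF10 almost every read (99.8% or more) was on hashed isoforms, and for SRSF5 between 57.2% and 62.9%, so their coding shares say little.

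Gene totals of the other SR genes with a mean of at least 5 TPM lay closer to the control, with SRSF9 as the exception. Over 9 of the 10 genes, those with a mean of at least 5 TPM, the log2 ratio of TPM + 0.5 to the control was at least 2-fold in 6 of 54 gene and library pairs, where 12.8% of all such pairs over 7877 genes were. All 6 pairs were lower, SRSF7 in G11, G12, G13 and G14 and SRSF9 in G5 and G11, against a background of 11.3% lower, and 0 were higher, against 1.45%. By library, 1 of 9 was at least 2-fold lower with G5 (10.1% of all genes), 2 with G11 (10.4%), 1 with G12 (8.79%), 1 with G13 (14.6%), 1 with G14 (18.9%) and 0 with G3 (5.14%). Over all pairs the share of the SR genes lay near that of all genes. With median-of-ratios scaling SRSF7 in G12 came to -0.93 and missed 2-fold, and against the median of the other 6 libraries, in place of the control, 0 pairs were 2-fold away.

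SRSF7 and SRSF9 were lower in all 6 G libraries, as were 20.5% of all genes compared, and 0 SR genes were higher in all 6, where 21.1% of all genes were. The median log2 ratio of the 9 genes, with that of all genes in brackets, was 0.13 with G3 (0.12), 0.15 with G5 (0.14), -0.02 with G11 (-0.04), -0.23 with G12 (-0.16), -0.23 with G13 (-0.21) and -0.16 with G14 (-0.10). The medians of the SR genes thus lay close to those of all genes. The lower level of SRSF9 in G3 was slight (-0.01 on the log2 scale) and turned to 0.03 over isoforms with a reference ID only.

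**Figure D3:**
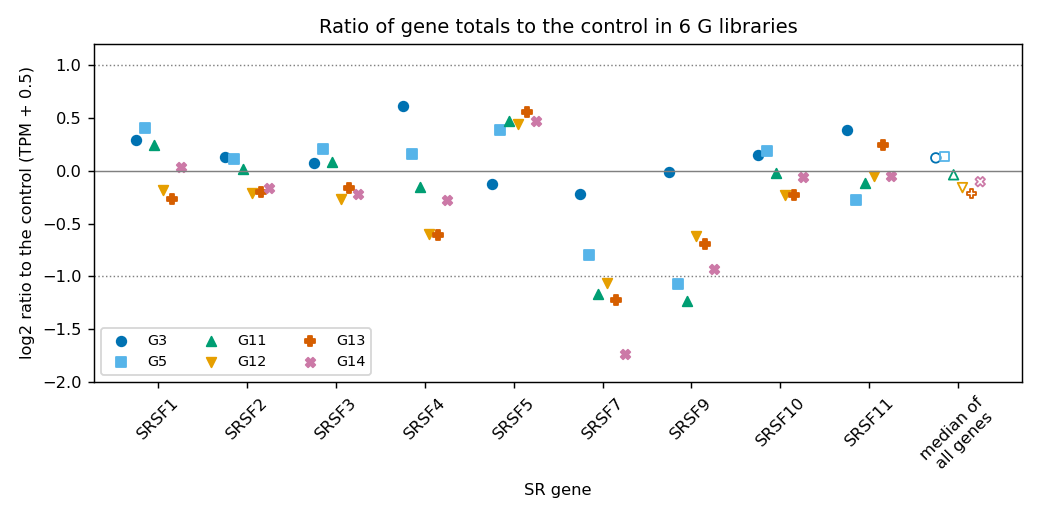
Log2 ratio of the gene total (TPM + 0.5) to the control for 9 SR genes in the 6 G libraries, with the median of all 7877 genes compared as open symbols on the right; dotted lines mark a 2-fold difference and each point is 1 library. SRSF7 reaches -1.73 in G14 and SRSF9 -1.24 in G11, and no SR gene passes the upper line.

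SRSF9, a short SR protein close in sequence to SRSF1, covers bases 120461668 to 120469793 of chromosome 12, minus strand (ENSG00000111786.9). It stood at 667 TPM in the control, 662 with G3, 316 with G5, 283 with G11, 434 with G12, 412 with G13 and 348 with G14. G3 and the control lay together (99.3%, interval 96.7 to 102), and the other 5 libraries lay below both. G5 was at 47.4% of the control (46.1 to 48.8) and G11 at 42.4% (41.1 to 43.8). Its main coding mRNA, SRSF9-201, made up 91.5% of its reads on average and its coding share stayed between 90.6% and 93.4%, close to its share of the control, 91.1%. SRSF9 had the shortest annotated mRNA of the 9 genes, 1201 bases with 52.3% GC. In the control 91.3% of its reads ended at base 120461272, beyond the annotated gene edge at base 120461668. The trend correction used the annotated length and GC content, without the part beyond that edge. How far this moved the corrected ratios of SRSF9 was not tested. With a trend in transcript length and GC content removed, SRSF9 was 2-fold from the control in no library (lowest -0.88, in G11) and was above it in G3 (0.53), while SRSF7 stayed 2-fold lower in G11, G12, G13 and G14 and reached -2.05 in G14.

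SRSF5, whose mRNA has been known as an early insulin-responsive message of liver, was above the control in 5 of 6 G libraries. It stood at 313 TPM in the control, 287 with G3, 408 with G5, 434 with G11, 425 with G12, 460 with G13 and 434 with G14. The 5 libraries above the control lay between 130% (126 to 135) and 147% (142 to 152) of it, and G3 lay at 91.7% (88.2 to 95.3). All were under 2-fold. With the length and GC trend removed it was above the control in all 6, by 0.19 to 0.69 on the log2 scale. The length and GC content were those of its annotated isoforms, without the hashed ones that held most SRSF5 reads. The main coding mRNA SRSF5-217 moved with the total, from 108 TPM in the control to 170 in G13.

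SRSF4, the longest of the classical SR proteins, spread over both sides of the control. It stood at 69.5 TPM in the control, 107 with G3, 77.4 with G5, 62.2 with G11, 45.8 with G12, 45.4 with G13 and 57.2 with G14. G3 was 2.34-fold above G13, the widest gap between G libraries for it, while none was 2-fold from the control. SRSF4-201, its coding mRNA, held 90.0% of the reads in the control and 92.4% to 95.1% in the G libraries.

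SRSF1, SRSF2, SRSF3 and SRSF10 stayed on both sides of the control, with no log2 ratio beyond 0.41 in either direction. SRSF1 stood at 573 TPM in the control and ranged from 475 in G13 to 759 in G5. SRSF2, which binds exonic enhancers and stays in the nucleus, stood at 380 TPM in the control and ranged from 328 in G12 to 416 in G3. SRSF3, the smallest SR protein and an export adaptor, stood at 918 TPM in the control and ranged from 762 in G12 to 1056 in G5. SRSF10, which represses splicing when dephosphorylated, stood at 468 TPM in the control and ranged from 399 in G12 to 531 in G5. In all 4 genes G3 and G5 were above the control and G12 and G13 were below it, the side on which the median of all genes lay in those libraries. After correction for transcript length and GC content the ratios spread further, to 0.78 for SRSF1 in G5 and -0.72 for SRSF3 in G14. SRSF3 in G11 (-0.22) and SRSF10 in G11 (0.14) and G14 (0.13) came to lie on the other side of the control. For SRSF10 the length and GC content were those of its annotated NMD isoform, with at most 0.161% of its reads. Its corrected ratios therefore say little. For SRSF1 the length and GC content were also those of its annotated isoforms. Of its reads, 96.9% in the control and 98.6% in G5 ended at base 58000921, beyond the annotated gene edge at base 58003360. The correction of SRSF1 left out the part beyond that edge, and how far this moved its corrected ratios was not tested.

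**Figure D4:**
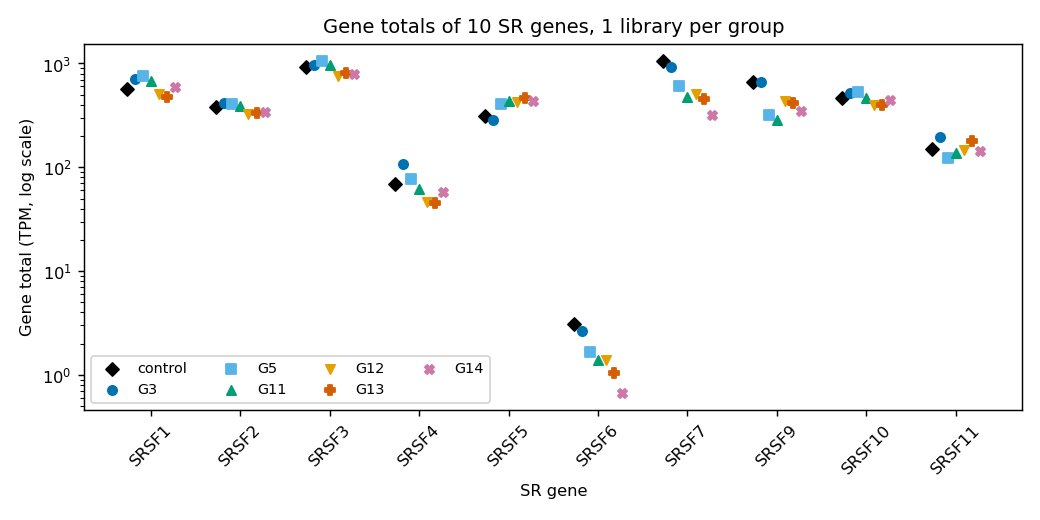
Gene totals in TPM on a log axis for the 10 SR genes, 1 point per library. SRSF3 lies between 762 and 1056 TPM, SRSF7 spreads from 320 to 1065, and SRSF6 lies at or under 3.09 TPM.

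Averaged over the 7 libraries, SRSF3 had the highest level (897 TPM), followed by SRSF7 (622), SRSF1 (612), SRSF10 (461), SRSF9 (446), SRSF5 (394), SRSF2 (370), SRSF11 (154) and SRSF4 (66.3). From SRSF3 to SRSF2 the ranges over libraries overlapped between neighbours, so their order is not fixed, and in the control SRSF7 stood above SRSF3. SRSF2 and SRSF11, and SRSF11 and SRSF4, did not overlap. SRSF6, a relative of SRSF4 with the same domain plan, had only 52 reads in the control, 47 with G3, 42 with G5, 29 with G11, 37 with G12, 24 with G13 and 14 with G14, from 3.09 down to 0.668 TPM, and was left out of the ratios. Its annotated coding mRNA is 4325 bases long, against 4222 for that of SRSF3, and the part of length in its low count was not tested.

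In SRSF11 the level differed little from the control and the 3′ ends differed much. The gene, also known as p54, lies on the plus strand of chromosome 1 at 70205682 to 70253052 (ENSG00000116754.14) and encodes a nuclear SR-related protein. It stood at 150 TPM in the control, 197 with G3, 124 with G5, 138 with G11, 145 with G12, 178 with G13 and 145 with G14, with G3 and G13 above the control and none 2-fold from it. With median-of-ratios scaling G12 and G14 were above the control as well, and with the length and GC trend removed only G3 was, with G13 at -0.13 on the log2 scale. The length and GC content were those of its annotated isoforms, with 9.83% of its reads in the control and 30.4% in G14. Its corrected ratios therefore leave out most of its reads. The isoform table gives 1 end per isoform, and most SRSF11 reads of the control were on isoforms that end at the edge of a coding exon inside the gene. The exons that hold 2 of these ends, 9 and 11, and the exon after each, 10 and 12, are shown from the annotated mRNA SRSF11-202, with runs of 4 or more A in capitals.
exon 9: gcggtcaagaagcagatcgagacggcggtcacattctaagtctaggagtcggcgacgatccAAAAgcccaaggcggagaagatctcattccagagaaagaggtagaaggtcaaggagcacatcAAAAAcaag
exon 10: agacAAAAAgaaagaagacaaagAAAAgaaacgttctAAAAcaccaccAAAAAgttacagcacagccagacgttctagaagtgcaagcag
exon 11: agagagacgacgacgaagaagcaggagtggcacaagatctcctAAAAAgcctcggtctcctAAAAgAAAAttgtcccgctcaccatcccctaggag
exon 12: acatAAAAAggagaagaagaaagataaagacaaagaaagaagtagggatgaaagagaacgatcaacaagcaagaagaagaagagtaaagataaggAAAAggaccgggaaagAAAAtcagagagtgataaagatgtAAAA
Exon 9 is chr1:70244684-70244815, exon 10 is chr1:70246818-70246907, exon 11 is chr1:70249952-70250047 and exon 12 is chr1:70250365-70250503, all coding (GRCh38, GENCODE 29). The most used inner end in the control was base 70244815, the last base of exon 9, and another common one was base 70250047, the last base of exon 11. A made up 36.4% of exon 9 and 34.4% of exon 11, where the ends lie, and 51.1% of exon 10 and 57.6% of exon 12, which follow them, against 32.6% of the whole coding sequence. Whether an end inside the gene marks a shorter mRNA or the place where cDNA synthesis began was not tested.

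Reads on SRSF11 isoforms that end in a last coding exon were 24.2% of the gene in the control (611 of 2524; Wilson interval 22.6 to 25.9). They were 55.6% with G3 (53.9 to 57.2), 55.8% with G5 (54.1 to 57.5), 54.1% with G11 (52.3 to 55.9), 45.1% with G12 (43.5 to 46.6), 52.4% with G13 (50.9 to 53.9) and 66.2% with G14 (64.5 to 67.8). The control was lowest and no interval of a G library reached that of the control. The share was at least 10 points higher in all 6 G libraries, where 1.32% of 7830 genes were with G3, 2.32% with G5, 2.26% with G11, 1.75% with G12, 2.2% with G13 and 2.86% with G14. Against the median of the other 6 libraries, in place of the control, the difference was 10 points or more only in G14 (12.9). In the other 9 SR genes the same share lay between 96.8% and 100% in every library. Most SRSF1 and SRSF9 reads ended beyond the annotated gene and entered that share through the rule for such ends.

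Isoforms ending within 10 bases of the edge of an inner coding exon held most of the rest: 67.3% of SRSF11 reads in the control (65.5 to 69.1), 40.3% with G3, 38.6% with G5, 39.1% with G11, 49.8% with G12, 40.8% with G13 and 28.3% with G14. The end at base 70244815 alone held 44.1% in the control and ranged from 17.3% in G14 to 34.2% in G12. The end at base 70250047 held 11.8% in the control and between 8.21% and 12.4% in the G libraries, so it differed much less. The end at base 70253047, in the last exon, held 16.4% in the control and ranged from 34.7% in G12 to 51.6% in G14.

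**Figure D5:**
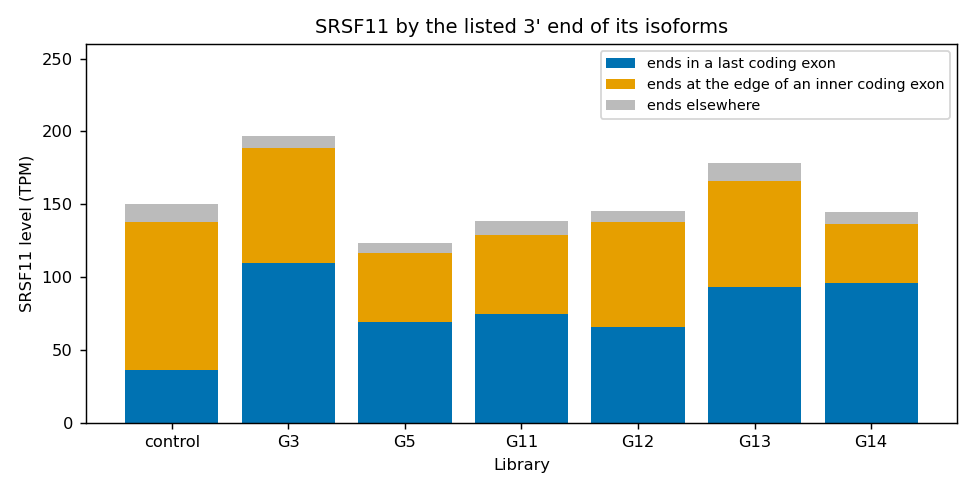
SRSF11 level in TPM in each of the 7 libraries, stacked by the listed 3′ end of its isoforms (last coding exon, edge of an inner coding exon within 10 bases, elsewhere). The part ending in a last coding exon is 36.4 TPM in the control and runs from 65.4 (G12) to 109 (G3) in the others, while the total stays between 124 and 197 TPM.

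In level, SRSF11 reads ending in a last coding exon stood at 36.4 TPM in the control and 109 with G3, 69 with G5, 74.9 with G11, 65.4 with G12, 93.4 with G13 and 95.8 with G14. That is 1.80-fold (1.64 to 1.98) in G12 to 3.01-fold (2.75 to 3.30) in G3. The remaining reads stood at 114 TPM in the control and ranged from 49.0 in G14 to 87.5 in G3, or 43.0% (39.8 to 46.4) to 76.8% (71.8 to 82.2) of the control. Both parts thus differed from the control in opposite directions in every G library, and the gene total shows little of it.

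The same split appears in single isoforms of SRSF11. SRSF11-201 (ENST00000370949.2), a coding mRNA that ends at base 70253047, stood at 7.20 TPM in the control, 24.7 with G3, 16.9 with G5, 18.4 with G11, 14.4 with G12, 23.0 with G13 and 21.4 with G14. A hashed isoform with the same listed start that ends at base 70244815 stood at 29 TPM in the control, 22.7 with G3, 13.8 with G5, 16.1 with G11, 22.4 with G12, 20.7 with G13 and 10.3 with G14. The first was lowest in the control and the second highest there. Of all genes compared, 21.1% had totals higher than the control in all 6 G libraries and 20.5% lower. The same share over single isoforms was not counted. The 5′ starts differed less: base 70221361 held 52.9% of reads in the control and 49.1% to 54.4% in the G libraries, and base 70205677 held 39.0% and 36.8% to 42.8%.

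The coding share of SRSF11, which counts only its 4 annotated coding isoforms, was 9.83% in the control, 26.3% with G3, 25.3% with G5, 25.5% with G11, 20.4% with G12, 22.7% with G13 and 30.4% with G14. The table lists only isoforms with a control read, so reads on forms seen only in a G library are missing from every G share given here; how far this moved the shares was not tested. Over all genes, coding shares at least 10 points higher were more frequent than lower ones in each G library, in G14 9.09% against 2.51%. Over the 8 SR genes compared with an annotated coding isoform, 7 of 48 gene and library pairs differed from the control by at least 10 points, where 10.3% of all such pairs over 7702 genes did. Of these, 6 were SRSF11, higher in each G library, where 9.66% of genes were with G3, 9.02% with G5, 8.21% with G11, 7.65% with G12, 8.28% with G13 and 9.09% with G14. The other pair was SRSF7 in G14, lower, where 2.51% of genes were. Summed over isoforms with a reference ID only, SRSF11 was above the control in all 6 G libraries, by 0.98 to 1.78 on the log2 scale, in place of the small differences of its total.

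SRSF10 also used several 3′ ends, with 98.9% or more of its reads ending in a last coding exon. The end at base 23964790 held 54.4% of SRSF10 reads in the control, 53.5% in G3 and between 59.1% in G12 and 63.1% in G14 in the other 5 G libraries. The end at base 23966449 held 27.4% in the control, 28% in G3 and between 21.1% and 24.8% in the other 5. G3 thus lay with the control, and no G library was 10 points away. In SRSF2 the coding mRNA SRSF2-202 stood at 309 TPM in the control and ranged from 256 in G12 to 345 in G3.

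Of 22 regulators and relatives of the SR proteins, 18 reached a mean of 5 TPM, and the library pairs that were at least 2-fold from the control were 5 of 108 higher and 1 lower, against 1.45% higher and 11.3% lower over all genes. SRRM1, a splicing coactivator with an arginine-serine tail, made up 4 of the 5. It stood at 36.2 TPM in the control, 97.2 with G3, 98.3 with G5, 84.1 with G11, 69.8 with G12, 67.1 with G13 and 85.5 with G14, so the control was lowest. CLK2, a kinase of SR proteins, gave the fifth, at 17.4 TPM in the control, 37.8 in G3 and 14.5 to 28.6 in the other 5. SON, a large scaffold protein of nuclear speckles, stood at 11.5 TPM in the control and 4.96 in G13.

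Among the most abundant of the rest, RNPS1, an exon junction factor, was above the control in all 6 G libraries, by 0.31 to 0.49 on the log2 scale, from 1458 TPM in the control. CLK3, another SR protein kinase, was above it by 0.18 to 0.77, from 110 TPM. TRA2B, an SR-like splicing activator, stood at 442 TPM in the control and from 345 to 502 in the G libraries. The phosphatase subunits PPP1CA, PPP1CB and PPP1CC lay between -0.32 and 0.67. SRSF8, SRPK2, DYRK1A and SRRM2 were below the minimum.

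The gene whose profile over the 7 libraries lay nearest to each SR gene was found by the root mean square difference of centred log2 levels. For SRSF7 it was CLDN6, a tight junction gene, at 0.06, where the median over all genes was 0.57. A nearest gene lies under that median by selection. CLDN6 stood at 1796 TPM in the control and 525 in G14. For SRSF9 it was RHOBTB3 (0.08) and for SRSF11 MNAT1 (0.12). The nearest genes were FASTKD3 for SRSF1 (0.03), MTAP for SRSF2 (0.03), C1orf174 for SRSF3 (0.04), TMEM165 for SRSF4 (0.04), TRAM1 for SRSF5 (0.04) and CTSC for SRSF10 (0.03). All profiles share the same 7 libraries.

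Some SR genes overlap others, and whether the counting used strand is not given in the sources used here. SRSF1 shares its strand with ENSG00000266086 (161 reads in the control) and ENSG00000264112 (87), against 9628 reads of its own. On the opposite strand, SRSF9 overlaps GATC (1184 reads in the control against 11199), SRSF11 overlaps LRRC40 (1201 against 2524) and SRSF2 overlaps MFSD11 (240) and METTL23 (132). SRSF7 overlapped no gene with more than 1 read.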

How the data were processed

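Polyadenylated RNA of 7 HUES66 libraries was read as full-length cDNA on the PacBio Revio system from 8-fold MAS-Seq arrays, per the labels' protocols. Per the file headers, the values deposited by the authors are a count of full-length reads and a TPM value, per isoform and library. The deposited TPM equalled the count divided by the library total, within 0.005. The submitters' processing notes name minimap2 2.17 and the builds GRCh38 and hg38; the tool that called isoforms and its filters are not given in the sources used here. The table lists isoforms with at least 1 control read, which held 98.1% to 98.6% of the reads of each G library, and isoforms without a control read are not analysed here, which can bias isoform shares of the G libraries against the control.

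Isoforms were summed per Ensembl gene. Levels were compared as log2(TPM + 0.5), which understates ratios of low genes, for 7877 genes with a mean of at least 5 TPM. A gene was called at 2-fold and a share at 10 points; NMD shares were compared in genes with at least 20 NMD reads in the control. Biotypes, exons and sequences came from GENCODE 29, matched by transcript ID without its version. Length and GC content for the trend correction came from the same source, over the isoforms it holds. Listed starts were taken as counted from 0 and printed with 1 added. Ratios have exact Clopper-Pearson intervals and shares have Wilson intervals, at 95%; reads carry no molecular identifiers. The fold calls and the ratio intervals were tested on simulated data with counting error only, and the Wilson intervals were not. Python 3.11.15, numpy 2.4.6, pandas 2.3.3 and scipy 1.17.1 were used.

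The SR genes and lists were chosen with earlier results of these data known. Named are the 10 genes, their isoforms with at least 5% of the gene or the top isoform of a biotype other than protein coding, RBFOX2, relatives called in any library plus up to 6 more by level, and the nearest gene in pattern. SRSF7-204 and the SRSF11 ends were added after their values were seen.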

Additional observations from a re-analysis of the deposited data

How the results depend on the processing

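No paired analysis was possible because each group has 1 library and all carry the same replicate number. The 6 gene and library pairs at 2-fold became 11 with isoforms of a reference ID only, 13 at 1.5-fold, 5 without G14, and 0 when the reference was the median of the other 6 libraries; with median-of-ratios scaling SRSF7 passed 2-fold in 3 libraries in place of 4. The median log2 ratio of the SR genes moved to 0.17 in G3, 0.21 in G5, 0.028 in G11 and -0.27 in G12 with reference IDs only; to 0.026 for G11, -0.092 for G12, -0.068 for G13 and -0.048 for G14 with median-of-ratios scaling; to 0.40 for G3, 0.24 for G5, -0.15 for G11, -0.32 for G12, -0.45 for G13 and -0.27 for G14 with the length and GC trend removed; and to 0.27 in G3 and 0.22 in G5 against the other libraries. Over all G libraries it was -0.05, and -0.16 to -0.021 when each was left out in turn (-0.16 without G3, G5 or G11). That scaling moves every ratio by -0.04 (G5) to 0.16 (G13) on the log2 scale. SRSF10 and SRSF11 were above the control in 2 libraries, and in 4 with median-of-ratios scaling. The 7 pairs with a coding share 10 points away became 12 at 5 points, 1 at 20 points and 1 over reference IDs only, where hashed isoforms leave the denominator. Chosen after seeing the data were the SRSF7 NMD ratio and the SRSF11 last-exon difference. The SRSF7 NMD ratio stayed on its side with isoforms of at least 1 TPM and with reads of reference IDs as the denominator. It was not set against the median of the other 6 libraries. The SRSF11 last-exon difference in G3 was 34.5 points with isoforms of at least 1 TPM. Against the median of the other 6 libraries that difference was 2.32 for G3, 2.56 for G5, 0.14 for G11, -9.77 for G12, -2.47 for G13 and 12.9 for G14, since the control is then 1 of the 6. Other causes were not tested. Depth limits SRSF6, with 14 to 52 reads.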
